A study of Mus musculus with 23 samples.

Results

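The 8 neutrophil genes described here were S100a8, S100a9, Retnlg, Cxcr2, Csf3r, Il1r2, Ngp and Lcn2, found by symbol among the 35322 genes of the expression table. All 8 were present in the table and all 8 passed the filter on low values (at least 0.5 RPM, a read count divided by its library total and put on a common scale, in 4 or more libraries). RNA-Seq was performed on lung from 13-week-old BALB/c (labelled Balb/c) offspring described as female, in 4 groups. Sham offspring came from dams given saline and were themselves challenged with vehicle, which is called PBS in the labels and saline in the study's methods (n = 7). PM offspring came from dams exposed to fine particulate matter (PM2.5) from before mating until weaning and were challenged with the same vehicle (n = 7). Sham-OVA offspring (n = 5) and PM-OVA offspring (n = 4) came from the same 2 kinds of dams and were sensitised with ovalbumin (OVA) in alum and then challenged with nebulised OVA to induce allergic airway disease. The right lung was snap frozen on the day after the last challenge and after lung function had been measured with methacholine, which all 4 groups share. The study's methods also place a saline lavage of the airways right after the lung function test. Whether every sequenced lung was lavaged is not stated, and cells washed out would be missing from the RNA. Whether the vehicle groups were also sensitised is not clear from the sources used here, and no label ties a library to a dam, so littermates within a group cannot be told from unrelated offspring. Below, Sham and PM together are called the saline libraries, and Sham-OVA and PM-OVA the OVA libraries.

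Neutrophils are short-lived granulocytes that are made in the bone marrow, where each step of maturation fills a different set of granules with proteins, and that circulate and marginate in the vessels of the lung before they enter tissue. S100a8 and S100a9 encode the subunits of calprotectin, the calcium- and zinc-binding complex that is the most abundant cytosolic protein of the neutrophil and that is also made by monocytes. Ngp and Lcn2 encode proteins of the secondary granules, which are transcribed mainly in marrow precursors; Lcn2 binds bacterial siderophores and is also made by airway epithelium. Retnlg encodes a secreted resistin-like protein found in mature mouse neutrophils. Cxcr2 encodes the receptor for the chemokines that draw neutrophils from blood into tissue, Csf3r the receptor for granulocyte colony-stimulating factor, and Il1r2 the decoy receptor that binds interleukin-1 without signalling. In bulk lung RNA, fewer cells of a type and less RNA per cell cannot be told apart, and this holds for every value below.

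The genes lie on 6 chromosomes of GRCm38. S100a8 (ENSMUSG00000056054) occupies chr3:90668978-90670035 on the plus strand and S100a9 (ENSMUSG00000056071) chr3:90692632-90695721 on the minus strand, with 22596 bases between them and no other member as close. Retnlg lies at chr16:48872621-48874496, Ngp at chr9:110419747-110423012, Lcn2 at chr2:32384633-32388252, Cxcr2 at chr1:74153989-74161246, Csf3r at chr4:126024550-126044440 and Il1r2 at chr1:40074079-40125231. Il1r2 overlaps the antisense gene Gm16894 and the gene model Gm37347 on its own strand, and the sources do not state whether strand was used in counting, so reads in the overlaps may belong to either. The 250 bases before the transcription start, as RefSeq places it on GRCm38.p6, are printed 5′ to 3′ in the gene's direction for the members whose stretch held one of the motifs searched. The motifs were the C/EBP motif TTGCNNAA, the PU.1 motif GAGGAAGT and the TATA box TATAAA, each on both strands, because C/EBP factors and PU.1 drive granulocyte genes. Capitals mark the matches, and no match overlapped another. The gene spans above follow GENCODE, whose starts differ from those of RefSeq. The stretches of Lcn2 and Il1r2 lie inside their GENCODE spans, and those of S100a8, Ngp, Cxcr2 and Csf3r reach into theirs. Positions below are counted from the RefSeq start.
S100a8, chr3:90668821-90669070, plus strand: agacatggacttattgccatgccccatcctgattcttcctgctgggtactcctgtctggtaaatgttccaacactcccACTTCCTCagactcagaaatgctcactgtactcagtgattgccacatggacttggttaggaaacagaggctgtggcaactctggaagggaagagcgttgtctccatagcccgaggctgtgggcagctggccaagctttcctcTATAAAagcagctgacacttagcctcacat
S100a9, chr3:90695722-90695971, minus strand: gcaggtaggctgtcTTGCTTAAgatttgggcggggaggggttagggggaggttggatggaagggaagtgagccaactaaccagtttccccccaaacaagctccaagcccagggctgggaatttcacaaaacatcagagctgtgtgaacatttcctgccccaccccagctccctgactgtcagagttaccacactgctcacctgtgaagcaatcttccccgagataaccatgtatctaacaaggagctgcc
Retnlg, chr16:48872358-48872607, plus strand: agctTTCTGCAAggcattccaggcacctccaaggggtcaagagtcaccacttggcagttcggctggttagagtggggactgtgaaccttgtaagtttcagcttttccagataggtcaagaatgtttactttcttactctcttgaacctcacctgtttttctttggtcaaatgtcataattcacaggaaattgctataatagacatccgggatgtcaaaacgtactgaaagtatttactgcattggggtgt
Ngp, chr9:110419558-110419807, plus strand: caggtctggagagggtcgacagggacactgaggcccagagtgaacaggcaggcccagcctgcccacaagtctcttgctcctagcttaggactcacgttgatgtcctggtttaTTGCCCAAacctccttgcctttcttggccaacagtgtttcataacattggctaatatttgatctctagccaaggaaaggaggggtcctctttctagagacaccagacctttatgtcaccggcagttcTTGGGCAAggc
Lcn2, chr2:32387740-32387989, minus strand: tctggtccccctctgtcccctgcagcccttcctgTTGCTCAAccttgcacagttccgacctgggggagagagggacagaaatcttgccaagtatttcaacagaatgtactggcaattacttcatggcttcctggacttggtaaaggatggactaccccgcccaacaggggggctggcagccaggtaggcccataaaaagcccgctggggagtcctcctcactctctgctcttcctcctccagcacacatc
The S100a8 stretch held a PU.1 motif on the opposite strand from position -172 and a TATA box from position -30, counted from the first base of the transcript. The C/EBP motif was found at -236 in S100a9, -246 in Retnlg, -138 and -11 in Ngp and -216 in Lcn2. It was thus present in 4 of the 8 members, and in 9.56% of the 32851 promoters of the same length in the RefSeq table. The PU.1 motif was present in 2.44% and the TATA box in 12.4% of those promoters. The stretches of Cxcr2, Csf3r and Il1r2 held none of the 3 motifs, which says only that these letters are not in that window.

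Reads on genes ranged from 13089691 to 17393579 in the saline libraries, from 2298645 to 12185451 in Sham-OVA and from 4324326 to 12355561 in PM-OVA. One read was worth at most 0.0688 RPM in a saline library and 0.311 RPM in Sham-OVA replicate 3, the shallowest library, ahead of which came PM-OVA replicates 4 and 3. Sftpc, the surfactant gene of alveolar type II cells, was at 6490 RPM or more in all 23 libraries, as is usual for lung. Sham replicate 1 stood apart from its label: Xist, expressed from the inactive X chromosome of females, was at 0.289 RPM in it and at 174 to 1618 RPM in the other libraries, and the Y-linked gene Eif2s3y was at 54.0 RPM in it and at 0 in the others. The library was kept, and no call on the level of a member in Sham-OVA against Sham changed without it.

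**Figure D1:**
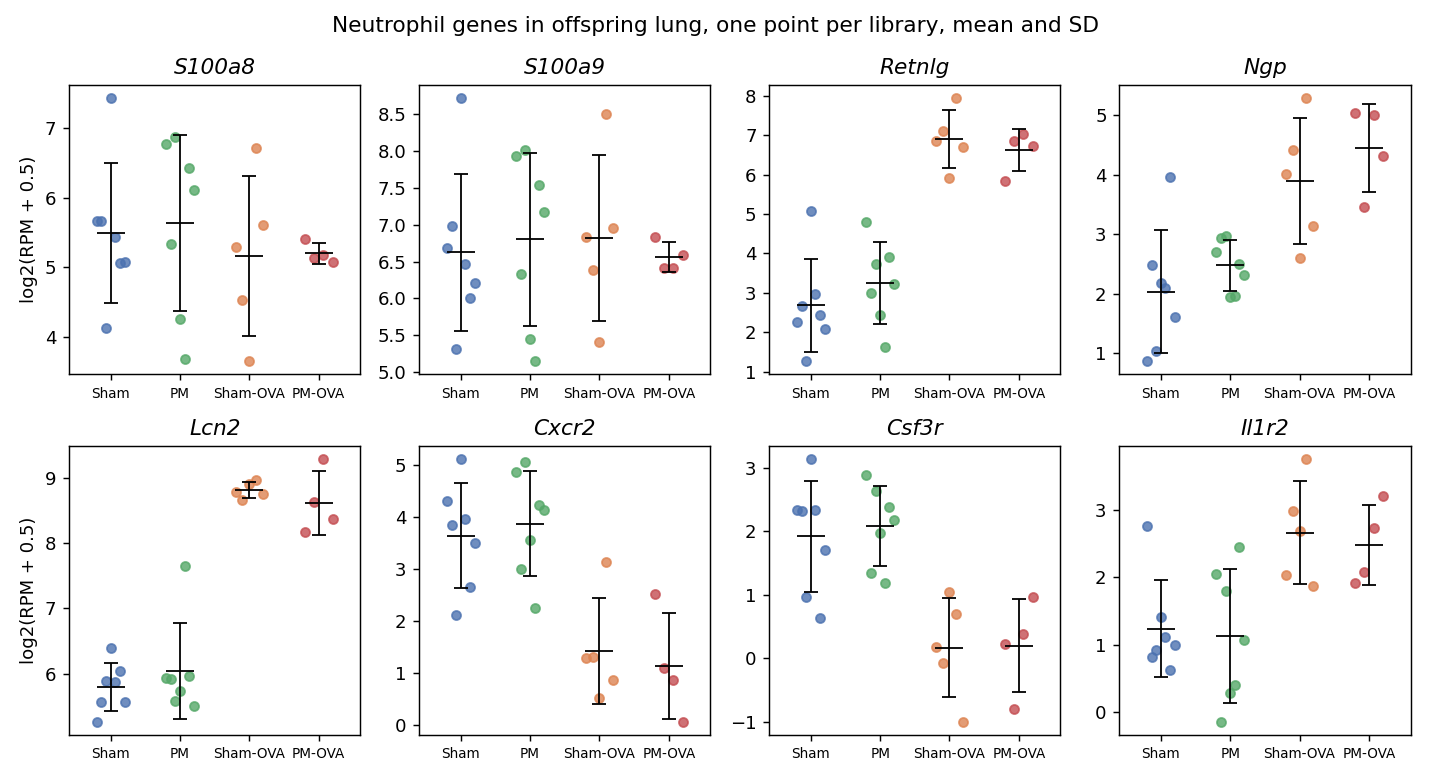
Levels of the 8 genes on the log2(RPM + 0.5) scale, with 1 point per library (Sham n = 7, PM n = 7, Sham-OVA n = 5, PM-OVA n = 4), a bar at the mean and whiskers of 1 SD. Every OVA library lies above every saline library for Retnlg and Lcn2, while the groups of S100a8 and S100a9 overlap throughout.

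The first question was how OVA challenge changed the neutrophil genes in offspring of saline-treated and of PM2.5-exposed dams. The members did not move as 1 block. Lcn2, Retnlg, Ngp and Il1r2 rose with OVA, Cxcr2 and Csf3r fell, and S100a8 and S100a9 did not pass the test, with the same assignment in both kinds of offspring. In Sham-OVA against Sham, 6 of 8 members were called at an adjusted p under 0.05 (limma on log2(RPM + 0.5) over 16795 genes, Benjamini-Hochberg), 4 higher and 2 lower. The background was high, since 68.1% of all genes tested were called in that comparison, 20.6% higher and 47.5% lower. In PM-OVA against PM, 6 of 8 were also called, 4 higher and 2 lower, against 65.3% of all genes, 20.1% higher and 45.2% lower. The number of members called was therefore close to the background in either comparison, and what the members show lies in their directions and sizes. Their median log2 fold change was 0.81 in Sham offspring and 0.56 in PM offspring, where the median over all genes tested was -0.48 and -0.43. With median-of-ratios scaling of the libraries the median over all genes moved to -0.17 and -0.13. Each member moved up too, for example Lcn2 from 3.01 to 3.38 and Il1r2 from 1.43 to 1.74 in Sham offspring. The stricter threshold of the study (adjusted p under 0.000001 with a log2 fold change beyond 1 in either direction) was set for DESeq2. Applied to limma, it called Lcn2 alone among the members in Sham offspring, where 4.51% of genes passed. No member was called by limma in PM offspring, where 0.286% passed. These counts depend on the tool. With DESeq2 on recovered reads, Retnlg (adjusted p = 4.06e-11) and Lcn2 (5.94e-59) met the threshold in Sham offspring. In PM offspring Retnlg (DESeq2 adjusted p = 1.14e-11), Ngp (8.55e-12) and Lcn2 (6.66e-10) met it.

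Calprotectin varied widely within groups, and no change with OVA was shown for either subunit. S100a9 ranged from 39.2 to 420 RPM in Sham with a median of 88.4, and from 35.1 to 259 RPM in PM with a median of 143. In Sham-OVA it was 113, 82.8, 41.9, 363 and 124 RPM in replicates 1 to 5, and in PM-OVA it was 113, 85.0, 84.7 and 95.5 RPM in replicates 1 to 4. Each OVA group lay inside the range of its saline group. The log2 fold change was 0.19 ± 0.53 (SE; 95% confidence interval -0.95 to 1.32; adjusted p = 0.765, limma) in Sham offspring and -0.24 ± 0.51 (-1.35 to 0.87; adjusted p = 0.696) in PM offspring, so that changes of 1.5-fold in either direction lay inside both intervals. S100a8, its partner subunit, ranged from 17.1 to 172 RPM in Sham with a median of 43.0, and from 12.3 to 117 RPM in PM with a median of 68.9. It was 38.9, 22.6, 12.1, 104 and 48.5 RPM in Sham-OVA and 42.2, 34.6, 35.9 and 33.4 RPM in PM-OVA. Sham-OVA again spread over most of the Sham range, with replicate 3 below it, while the 4 PM-OVA libraries lay close together inside the PM range. Its log2 fold change was -0.34 ± 0.52 (SE; 95% confidence interval -1.45 to 0.78; adjusted p = 0.582, limma) in Sham offspring and -0.44 ± 0.55 (-1.62 to 0.75; adjusted p = 0.5003) in PM offspring. The sign of S100a8 in Sham offspring and of S100a9 in PM offspring turned with median-of-ratios scaling (0.03 and 0.13).

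Among the secreted proteins, Retnlg changed most. It was between 1.91 and 33.5 RPM in Sham with a median of 4.94, and between 2.58 and 27.1 RPM in PM with a median of 8.76. In Sham-OVA it was 115, 137, 60.3, 246 and 104 RPM, and in PM-OVA 57.2, 115, 131 and 106 RPM. Every OVA library was above every saline library. The rise was 18.7-fold on the log2(RPM + 0.5) scale (log2 4.23 ± 0.51 SE, adjusted p = 5.80e-06, limma) in Sham offspring and 10.4-fold (log2 3.38 ± 0.48, adjusted p = 1.51e-04) in PM offspring, past the fold change of 99.8% and 99.6% of all genes. Non-overlapping groups in the higher direction were seen for 13.2% and 13.3% of all genes. Retnla, a paralog of Retnlg made by alternatively activated macrophages and airway epithelium, rose from 10.2 to 133 RPM in the saline libraries to 8337 to 23305 RPM in the OVA libraries. Retnlg shares 33 of its 564 runs of 30 bases (5.85%) with Retnla and with no other gene, and none of its 494 runs of 100 bases, the read length. Its level was 0.458% to 1.06% of that of Retnla in the OVA libraries and 2.60% to 135% in the saline libraries. The share of Retnlg reads that came from Retnla was not tested, so its size in the OVA libraries is uncertain.

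In Sham and in Sham-OVA, Lcn2 varied less than any other member. It was between 37.9 and 83.7 RPM in Sham with a median of 57.9, and between 45.0 and 199 RPM in PM with a median of 59.8. It was 439, 404, 480, 501 and 429 RPM in Sham-OVA and 286, 393, 624 and 331 RPM in PM-OVA, with every OVA library above every saline library. Within Sham-OVA the highest library was 1.24 times the lowest, whereas the highest S100a9 of that group was 8.64 times its lowest. The rise was 8.08-fold (log2 3.01 ± 0.17 SE, adjusted p = 8.93e-09, limma) in Sham offspring and 5.94-fold (log2 2.57 ± 0.36, adjusted p = 1.30e-04) in PM offspring. The single high saline value, 199 RPM, came from PM replicate 5, which had the lowest S100a8, S100a9, Retnlg and Cxcr2 of its group.

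Ngp, neutrophilic granule protein, was between 1.33 and 15.1 RPM in Sham with a median of 3.79, and between 3.36 and 7.37 RPM in PM with a median of 5.13. It was 15.7, 20.8, 5.59, 38.6 and 8.25 RPM in Sham-OVA and 32.2, 10.4, 31.5 and 19.4 RPM in PM-OVA. All 4 PM-OVA libraries were above all PM libraries, whereas in Sham offspring Sham replicate 6, at 15.1 RPM, overlapped 2 of the OVA libraries. The rise was 3.62-fold (log2 1.85 ± 0.52 SE, adjusted p = 0.00579, limma) in Sham offspring and 3.92-fold (log2 1.97 ± 0.32, adjusted p = 2.83e-04) in PM offspring. On recovered reads the values were higher in both kinds of offspring. They were log2 2.20 with DESeq2 and 2.31 with edgeR in Sham offspring, and 2.58 and 2.59 in PM offspring. The median over all genes moved up too, to -0.13 and -0.05 in Sham offspring and to -0.06 and -0.03 in PM offspring.

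The 3 receptors split. Cxcr2, the chemokine receptor of mature neutrophils, was between 3.82 and 34.1 RPM in Sham with a median of 13.9, and between 4.23 and 32.6 RPM in PM with a median of 16.9. It was 1.95, 1.96, 0.932, 8.29 and 1.31 RPM in Sham-OVA (28, 26, 3, 104 and 18 reads) and 5.24, 1.62, 1.33 and 0.545 RPM in PM-OVA (78, 21, 10 and 3 reads). The highest library of each OVA group reached into its saline range, and the other libraries lay below it. The fall was 4.65-fold (log2 -2.22 ± 0.51 SE, adjusted p = 0.00136, limma) in Sham offspring and 6.63-fold (log2 -2.73 ± 0.55, adjusted p = 1.00e-03) in PM offspring. Without the 3 shallowest libraries, a choice made after the data were seen that leaves 2 PM-OVA libraries, the value in PM offspring was -2.06 (adjusted p = 0.0202). Cxcr2 shares 245 of its 3039 runs of 30 bases (8.06%) with 758 other genes, and none of its runs of 100 bases. The share of Cxcr2 reads that came from other genes was not tested.

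Csf3r was the other receptor that fell. It was between 1.05 and 8.31 RPM in Sham with a median of 4.50, and between 1.76 and 6.88 RPM in PM with a median of 4.04. It was 0.625, 0.451, 1.55, 1.12 and 0 RPM in Sham-OVA (9, 6, 5, 14 and 0 reads) and 0.672, 0.0773, 0.797 and 1.45 RPM in PM-OVA (10, 1, 6 and 8 reads). The count of 0 in Sham-OVA replicate 5 allows a level of up to 0.219 RPM (3 reads, counting error only). All PM-OVA libraries were below all PM libraries, as for 28.6% of all genes, whereas the Sham groups overlapped. The fall was 3.37-fold (log2 -1.75 ± 0.43 SE, adjusted p = 0.00233, limma) in Sham offspring and 3.70-fold (log2 -1.89 ± 0.38, adjusted p = 0.00102) in PM offspring. Because the OVA counts are low these sizes depend on the pseudocount, and with 0.1 in place of 0.5 they were log2 -2.45 and -2.52. Csf3r shares 873 of its 3656 runs of 30 bases (23.9%) with 932 other genes. Of its 3726 runs of 100 bases, 14 are shared with AC105061.2. The share of Csf3r reads that came from other genes was not tested.

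Il1r2 went the other way. It was between 1.05 and 6.29 RPM in Sham with a median of 1.51, and between 0.409 and 4.95 RPM in PM with a median of 1.59. It was 3.61, 7.37, 5.90, 13.0 and 3.14 RPM in Sham-OVA and 3.29, 3.71, 6.11 and 8.72 RPM in PM-OVA. The groups overlapped in both kinds of offspring. The rise was 2.69-fold (log2 1.43 ± 0.38 SE, adjusted p = 0.00433, limma) in Sham offspring and 2.55-fold (log2 1.35 ± 0.48, adjusted p = 0.0257) in PM offspring. The call in PM offspring was the least secure of the 12. It was lost without PM-OVA replicate 3 (adjusted p = 0.0671), without PM-OVA replicate 4 (0.0848), with no filter on low values (0.0587), with limma array weights (0.106) and without the 3 shallow libraries (0.245).

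**Figure D2:**
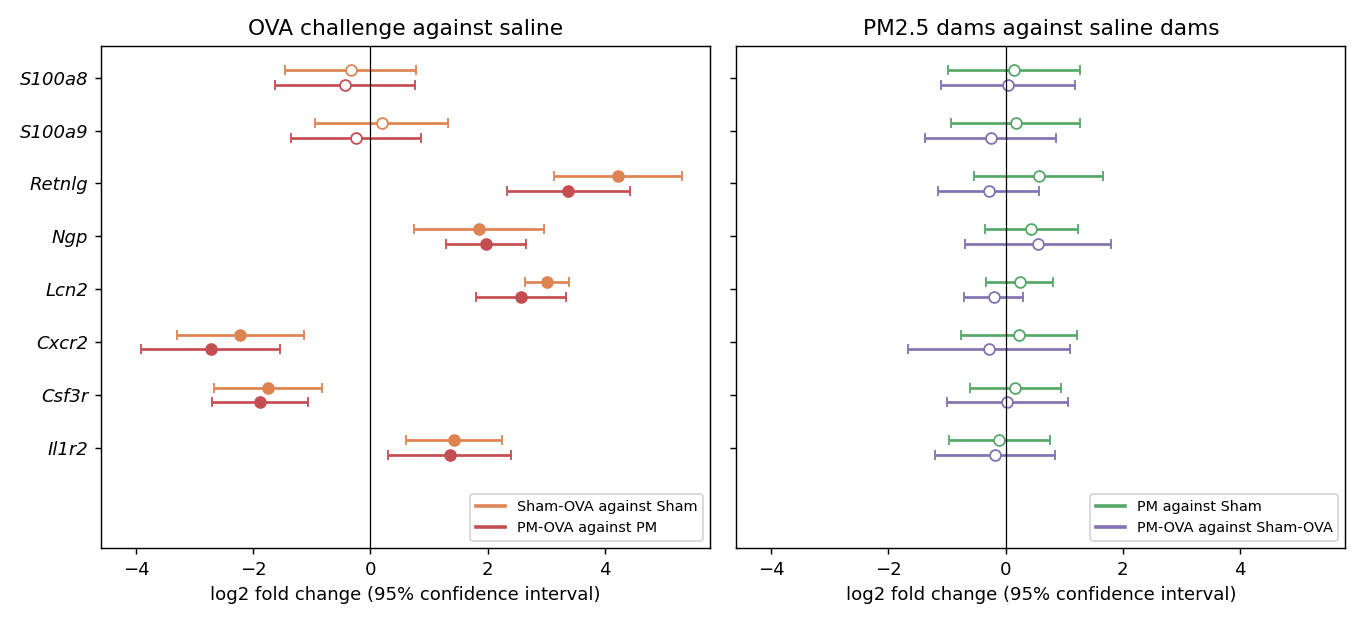
Log2 fold changes of the 8 genes with 95% confidence intervals, for OVA challenge (left) and for maternal PM2.5 exposure (right). Filled points have an adjusted p under 0.05. With OVA, 4 genes rose, 2 fell and the 2 calprotectin genes straddle 0 in both kinds of offspring, and no gene is filled on the right.

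Levels were compared between members per length of transcript. In Sham the mean level per kilobase of exon was 250 ± 250 RPM for S100a9 (SD, n = 7), 82.2 ± 75.1 for S100a8, 21.7 ± 5.75 for Lcn2 and 14.8 ± 18.6 for Retnlg. The others were at 4.81 ± 3.31 for Cxcr2, 3.91 ± 3.89 for Ngp, 1.15 ± 0.966 for Il1r2 and 1.07 ± 0.679 for Csf3r. Every neighbouring pair in this order differed by less than the larger of its 2 SDs. In Sham-OVA (n = 5) S100a9 was at 277 ± 241 RPM per kilobase, Retnlg at 223 ± 117 and Lcn2 at 172 ± 15.0, ahead of S100a8 at 65.3 ± 51.7. Ngp was at 14.6 ± 10.7, Il1r2 at 3.46 ± 2.08, Cxcr2 at 0.947 ± 1.00 and Csf3r at 0.208 ± 0.167. The steps from Lcn2 to S100a8, from Ngp to Il1r2 and from Il1r2 to Cxcr2 exceeded the larger SD, and the other steps did not, so that S100a9, Retnlg and Lcn2 were not ordered by the data. Reads were aligned without splicing, so reads across exon junctions may be missing, and this limits the comparison of genes but not of groups.

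To compare members with less weight on the scaling of the libraries, each was divided by S100a9 of the same library, with 0.5 RPM added to both. For genes near 0.5 RPM, such as Csf3r in the OVA libraries, the added value leaves the ratio dependent on that scaling. S100a9 was chosen as the denominator with its lack of a call known. Relative to S100a9, Retnlg was higher in the OVA libraries by 4.04 on the log2 scale in Sham offspring (two-sided exact permutation test over the libraries, p = 0.00126, adjusted p = 0.00589 over the 14 ratio tests) and by 3.62 in PM offspring (p = 0.00303, adjusted p = 0.00606). These are the smallest p-values that 7 against 5 and 7 against 4 libraries can give. Cxcr2 differed by -2.41 and -2.49, at the same smallest p-values. Csf3r differed by -1.94 (exact permutation p = 0.0101, adjusted p = 0.0141) and -1.65 (p = 0.00303, adjusted p = 0.00606). With pseudocounts of 0.1 and 1 in place of 0.5, the Csf3r values ran from -2.64 to -1.58 in Sham offspring. In PM offspring they ran from -2.285 to -1.27. Lcn2 differed by 2.82 (exact permutation p = 0.00253, adjusted p = 0.00606) and 2.81 (p = 0.0212, adjusted p = 0.0270). The Lcn2 value in PM offspring lost its call without PM-OVA replicate 2 or 3 (adjusted p = 0.0583 and 0.0628). Ngp differed by 1.67 (exact permutation p = 0.0366, adjusted p = 0.0427) in Sham offspring, a call lost without any 1 of Sham replicates 1, 2, 3, 4, 5 or 7 or Sham-OVA replicates 1 to 4 (adjusted p = 0.0620 to 0.0946), and by 2.21 (p = 0.00606, adjusted p = 0.0106) in PM offspring. Il1r2 differed by 1.24 (exact permutation p = 0.0821, adjusted p = 0.0821) and 1.59 (p = 0.00909, adjusted p = 0.0141).

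The 2 calprotectin subunits kept nearly the same proportion in every saline library. The log2 ratio of S100a8 to S100a9 was between -1.31 and -0.95 in Sham, with a mean of -1.13 ± 0.14 (SD, n = 7), and between -1.47 and -0.99 in PM, with a mean of -1.16 ± 0.15 (n = 7), although each gene alone differed 7.37- to 10.7-fold within a group. With OVA it was lower in Sham offspring, at -1.85 to -1.34 with a mean of -1.65 ± 0.21 (n = 5), a difference of -0.53 with no overlap between the groups (exact permutation p = 0.00126, adjusted p = 0.00589). In PM offspring the mean was -1.36 ± 0.12 (n = 4) and the difference of -0.20 did not pass (exact permutation p = 0.0576, adjusted p = 0.0620), though it passed without PM replicate 5 (adjusted p = 0.00741), without PM-OVA replicate 3 (0.0486) and with a pseudocount of 1 (0.0490). Whether the 2 differences differ from each other was not tested.

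**Figure D3:**
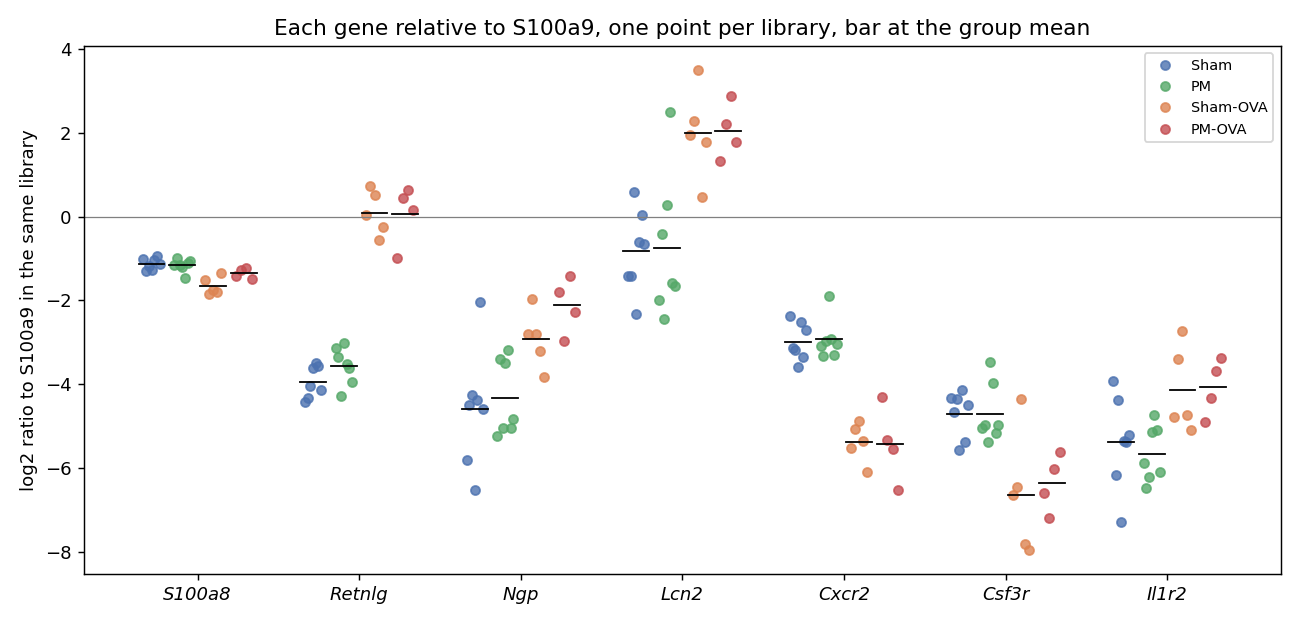
Log2 ratio of each gene to S100a9 in the same library, 1 point per library, with a bar at the group mean (Sham n = 7, PM n = 7, Sham-OVA n = 5, PM-OVA n = 4). Retnlg moves from about -4 to about 0 with OVA, Cxcr2 from about -3 to below -5, and S100a8 stays between -1.85 and -0.95 in all 4 groups.

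Within the saline groups, where no allergen was nebulised, most members varied more than nearly all genes. The SD of log2(RPM + 0.5) in Sham was 1.00 for S100a8, 1.07 for S100a9, 1.19 for Retnlg, 1.01 for Cxcr2 and 0.88 for Csf3r, where the median over all genes tested was 0.26, and these SDs exceeded those of 99.4% to 99.8% of genes. That of Lcn2, 0.37, exceeded those of 75.6%. Over the 14 saline libraries the highest level was 13.98 times the lowest for S100a8, 12.0 times for S100a9, 17.6 times for Retnlg, 8.91 times for Cxcr2 and 5.26 times for Lcn2. Sham replicate 4 was the highest and Sham replicate 3 the lowest of its group for S100a8, S100a9, Retnlg and Cxcr2. In PM, replicates 1 and 3 were above the median and replicate 5 was the lowest for the same 4 genes.

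The high and low libraries were shared by some members and not by others. After each group's mean was subtracted, Pearson's r with S100a9 over the 14 saline libraries was 0.99 for S100a8, 0.93 for Retnlg, 0.91 for Cxcr2 and 0.84 for Csf3r. It was 0.60 for Il1r2, 0.27 for Ngp and -0.28 for Lcn2. Cxcr2 and Csf3r followed each other at 0.95, and Ngp followed Camp, the gene of another secondary granule protein, at 0.94. Over the 9 OVA libraries S100a8 and S100a9 kept an r of 0.98, whereas r with S100a9 was 0.70 for Retnlg, 0.74 for Cxcr2, 0.72 for Ngp, -0.06 for Csf3r and -0.02 for Lcn2. Retnlg and Retnla had an r of 0.77 over the OVA libraries and -0.03 over the saline libraries. These are descriptions: the values of a library share its depth and tissue piece, and the low counts of Csf3r in the OVA libraries limit its r there.

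**Figure D4:**
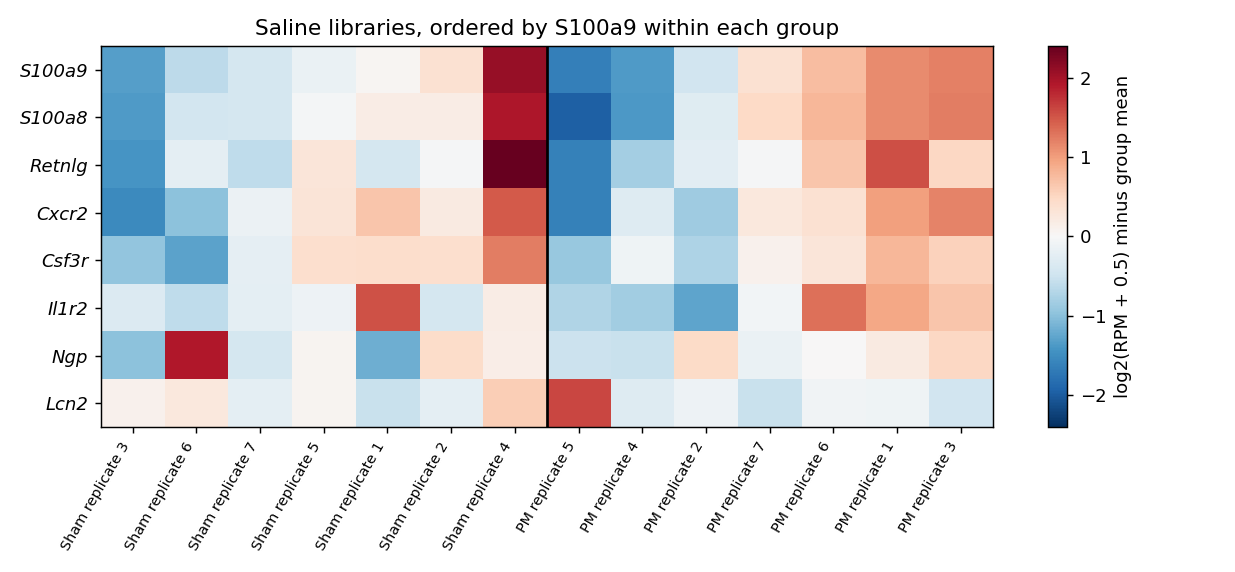
Deviation of each gene from its group mean on the log2(RPM + 0.5) scale in the 14 saline libraries, ordered by S100a9 within Sham (left) and PM (right). S100a8, Retnlg, Cxcr2 and Csf3r change colour in step with S100a9, whereas Ngp is high in Sham replicate 6 and Lcn2 in PM replicate 5, both low in S100a9.

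The genes that followed the members most closely over the saline libraries were sought among 14717 other genes, by r with the mean of the standardised deviations of the 8 members. The 10 highest were Asprv1 (0.94), 4833407H14Rik (0.93), Fopnl (0.93), Ccr1 (0.92), Mirt2 (0.92), Trem3 (0.92), Pold2 (0.91), A430108G06Rik (0.91), Mmp9 (0.91) and Msantd3 (0.90). The median over those genes was 0.09 and the 99th percentile 0.76. Asprv1 and Trem3 were on the list of genes high in mature neutrophils, and Mmp9, which encodes gelatinase B of the tertiary granules, on that of later granules. Ccr1 encodes a chemokine receptor of myeloid cells. Over the 9 OVA libraries the r of these 10 genes lay between -0.14 for Pold2 and 0.70 for Mirt2. The 10 were picked as the highest of many values in the saline libraries, and such a choice can lower r in other libraries. The reason for the lower r was not tested.

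Other neutrophil genes were split in the same comparisons, and the division ran across their roles. Of 9 later granule genes (members left out), 4 were higher, 1 lower and 4 not called in Sham-OVA against Sham, with a median log2 fold change of 0.43, and 4 were higher, 2 lower and 3 not called in PM-OVA against PM, with a median of 0.58. Over all genes tested, 20.6% and 20.1% were higher and 47.5% and 45.2% lower, with medians of -0.48 and -0.43. The named pair rose in both: Pglyrp1, a peptidoglycan-binding granule protein, by 3.54 and 3.14 on the log2 scale, and Ltf, lactoferrin, which is also made by glands, by 3.57 and 3.39. Camp, the cathelicidin gene, was singled out after its values were seen and rose by 2.64 and 3.23. Hp, haptoglobin, also singled out afterwards and made by lung epithelium too, fell by 1.73 and by 1.30 (log2 -1.73 and -1.30). Of 5 primary granule genes, 2 passed the filter. Prtn3, proteinase 3, rose by 1.29 and 1.43. Mpo, myeloperoxidase, was at most 0.275 RPM in the saline libraries and passed the filter through 4 OVA libraries alone, so that its higher values there (0.90 and 0.90 on the log2 scale) were partly fixed by the filter. Elane, which encodes neutrophil elastase, was at most 0.0695 RPM and the summed level of the 5 at most 5.35 RPM in any library.

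Among surface receptors more genes were lower than higher, in shares near the 47.5% and 45.2% of all genes. Of 10 receptor and adhesion genes, 1 was higher, 5 lower and 4 not called in Sham offspring, with a median log2 fold change of -0.83, and 2 were higher, 6 lower and 2 not called in PM offspring, with a median of -0.83. Fpr1, the formyl peptide receptor, had log2 fold changes of -2.94 and -3.19, and Ltb4r1, the leukotriene B4 receptor, of 1.49 and 1.65, all called. Trem1 (-1.53 and -2.05) and Cxcr1 (-1.55 and -0.93), singled out after their values were seen, were also called lower in both, Cxcr1 having passed the filter through the saline libraries. Of 12 tested genes high in mature neutrophils, 3 were higher and 3 lower in Sham offspring and 2 higher and 4 lower in PM offspring, with medians of -0.10 and -0.14. Hdc, histidine decarboxylase, rose by 1.10 and 0.82 and Msrb1 by 1.12 and 0.89. Ly6g, the surface marker by which mouse neutrophils are usually recognised, was at 0 to 2.79 RPM in all libraries. It differed by 0.80 (adjusted p = 0.0846, limma) in Sham offspring and was called higher by 0.92 (adjusted p = 0.0092) in PM offspring. It too was singled out after its values were seen.

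**Figure D5:**
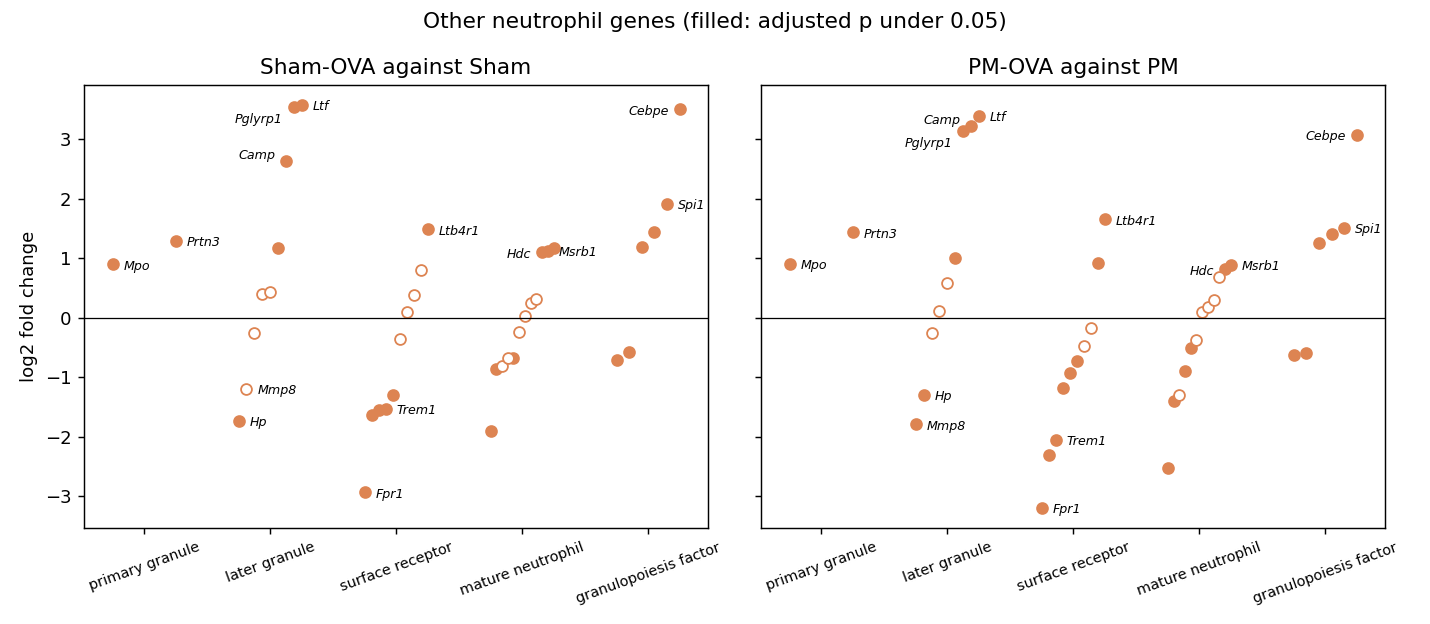
Log2 fold changes with OVA of the other neutrophil genes by list, in Sham offspring (left) and PM offspring (right), 1 point per gene, spread sideways in order of size within a list, filled where the adjusted p is under 0.05. Ltf, Pglyrp1, Camp and Cebpe lie above 2.5 and Fpr1 below -2.5 in both panels.

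Genes that act on the members or with them were compared as well. Over all genes tested, 20.6% and 20.1% were higher with OVA and 47.5% and 45.2% lower. Of 9 tested ligands and neutrophil growth factors, 4 were higher and 2 lower in Sham offspring and 2 higher and 2 lower in PM offspring, with median log2 fold changes of 0.14 and -0.59. Cxcl5, an epithelial ligand of Cxcr2, rose by 3.01 and 1.27, and Il1a, a ligand captured by Il1r2, had log2 fold changes of -2.33 and -2.33. Csf3, the ligand of Csf3r, did not pass the filter on low values. Of 7 partners in binding or signalling, 3 were higher and 4 lower in Sham offspring and 1 higher and 4 lower in PM offspring, with medians of -1.36 and -1.04. Il1rn, the interleukin-1 receptor antagonist, rose by 2.17 and 1.62, and Tlr4, a receptor for calprotectin, had log2 fold changes of -1.36 and -1.41. Of 6 granulopoiesis factors, 4 were higher and 2 lower in both, with medians of 1.32 and 1.33. Cebpe, the C/EBP factor required for secondary granules and also expressed in eosinophils, rose by 3.50 and 3.07 after it had passed the filter through the OVA libraries, and Spi1, which encodes PU.1 and is expressed in macrophages too, by 1.92 and 1.51. Of 8 tested paralogs of the members, 7 and 6 were higher and none lower, among them Retnla (9.74 and 9.12) and S100a4 (2.502 and 2.15). Retnlb, singled out after its values were seen, was at most 0.174 RPM in the saline libraries and between 0.973 and 20.6 RPM in the OVA libraries, through which it passed the filter.

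Markers of other cells moved in the same libraries, and their part in the members' changes was not tested. Over all genes tested, 68.1% and 65.3% were called with OVA, 20.6% and 20.1% higher and 47.5% and 45.2% lower. All 6 eosinophil genes were called, 5 higher and 1 lower in both comparisons, with Prg2, major basic protein, up by 3.94 and 3.68 and Il5ra by 3.18 and 2.47. Siglecf, singled out after its values were seen, had means of 7.89 RPM in Sham and 3.76 in Sham-OVA. Its means were 8.55 RPM in PM and 3.22 in PM-OVA. Prg2 and Epx were below 0.5 RPM in every saline library and entered the test through the OVA libraries, so that the count of higher genes was partly fixed by the filter. The summed level of the 6 was 4.27 to 22.3 RPM in the saline libraries and 28.0 to 106 RPM in the OVA libraries. Of 10 genes of secretory epithelium, which can also make Lcn2, 7 were higher and 1 lower in both, among them Clca1 (9.86 and 10.54) and Muc5ac (5.42 and 5.88), and Agr2 passed the filter through the OVA libraries. Their summed level was 13235 to 34927 RPM in Sham and 4146 to 29374 RPM in Sham-OVA, and 13973 to 23032 RPM in PM and 7543 to 38861 RPM in PM-OVA, of which Scgb1a1, the club cell secretoglobin, made up 71.1% to 98.6% in each library. Scgb3a2, singled out after its values were seen, had means of 324 RPM in Sham and 98.1 in Sham-OVA. Its means were 306 RPM in PM and 151 in PM-OVA. Of 7 monocyte genes, which share S100a8, S100a9 and Csf3r with neutrophils, 2 were higher and 2 lower in Sham offspring and 2 higher and 1 lower in PM offspring. Treml4 (-1.49 and -1.44) was called in both and Ace (-0.63 and -0.32) in the first, and Ly6c2, 1 of the 2 higher genes, was at 0 in every saline library and passed the filter through the OVA libraries. The summed level was 828 to 2129 RPM in the saline libraries and 1042 to 1696 RPM in the OVA libraries, of which Ace, a gene also of lung endothelium, made up 74.2% to 90.8%. Without Ace the sum was 167 to 441 RPM and 179 to 313 RPM. Of 6 alveolar macrophage genes, 3 and 2 were higher and 2 and 2 lower. Mrc1 rose by 1.42 and 1.01 and Car4 by 1.00 and 1.18, whereas Marco (-1.99 and -2.01, past the filter through the saline libraries) and Pparg (-1.11 and -1.44), both singled out after their values were seen, fell. The summed level was 188 to 350 RPM in the saline libraries and 330 to 866 RPM in the OVA libraries. Car4, a gene also of lung capillary endothelium, made up 33.8% to 78.1% and 51.4% to 81.9% of it, and without Car4 the sum was 52.5 to 125 RPM and 137 to 227 RPM. Of 5 mast cell and basophil genes 3 were higher in both and 0 and 1 lower (Tpsb2 2.26 and 1.13, Cpa3 1.90 and 0.96), with sums of 1.23 to 6.96 RPM and 4.54 to 94.7 RPM. The highest sum was that of Sham-OVA replicate 4, which also had the highest S100a9 of the OVA libraries and held Mcpt8 at 68.0 RPM, where the other OVA libraries were at most at 1.27. Mcpt8 passed the filter through the OVA libraries, and like Epx, Agr2, Scgb1a1 and Ly6c2 it was singled out after its values were seen. Without that library the highest sum was 15.6 RPM. Of 5 regulatory T cell genes 2 were higher and 1 lower in both (among them Tnfrsf18, 1.91 and 1.42, and Ctla4), with sums of 19.8 to 27.3 RPM and 25.1 to 64.9 RPM. Ikzf2, singled out after its values were seen, had means of 9.55 RPM in Sham and 4.65 in Sham-OVA. Its means were 8.94 RPM in PM and 4.24 in PM-OVA. Of the blood genes, 2 and 3 of 3 tested erythroid genes (Hbb-bt 1.57 and 1.98, Hbb-bs 1.01 and 1.37) and 3 and 2 of 5 platelet genes (Pf4 2.02 and 0.98, Gp1bb 1.25 and 1.12) were higher, 0 and 0 erythroid and 2 and 1 platelet genes lower. The platelet genes Gp9 and Gp5, singled out after their values were seen, had lower means with OVA. Gp9 went from 4.30 to 1.89 RPM in Sham offspring and from 5.69 to 1.82 in PM offspring. Gp5 went from 4.45 to 1.72 RPM and from 4.60 to 1.85. Erythroid sums were 549.95 to 2163 RPM in the saline and 1193 to 4837 RPM in the OVA libraries, and platelet sums 20.1 to 83.4 RPM and 40.6 to 81.2 RPM.

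The second question was whether maternal PM2.5 exposure alone changed the neutrophil genes. In PM against Sham 0 of 8 members were called, and 0% of all genes (limma, adjusted p under 0.05). At an unadjusted p under 0.05 there were 0 members and 731 of 16795 genes (4.35%), and DESeq2 and edgeR on recovered reads also called 0 genes. The differences between PM and Sham lay between -0.11 for Il1r2 and 0.56 for Retnlg on the log2 scale. Retnlg differed by 0.56 ± 0.52 (SE; 95% confidence interval -0.54 to 1.67; adjusted p = 0.899, limma), and the smallest p was that of Ngp, at 0.44 ± 0.38 (-0.36 to 1.24; adjusted p = 0.898). With the spread of these groups the interval of S100a9 ran from -0.93 to 1.28 around 0.17 and that of Cxcr2 from -0.77 to 1.22 around 0.23, so that changes of 1.5-fold in either direction lay inside both. The interval was narrowest for Lcn2, from -0.34 to 0.82 around 0.24.

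Between challenged offspring, PM-OVA against Sham-OVA, 0 of 8 members and 0% of all genes were called (limma). At an unadjusted p under 0.05 there were 0 members and 313 genes (1.86%), while DESeq2 called 1 gene and edgeR 0, none of them a member. The differences lay between -0.29 for Retnlg and 0.56 for Ngp. Ngp differed by 0.56 ± 0.56 (SE; 95% confidence interval -0.69 to 1.80; adjusted p = 1, limma) and Retnlg by -0.29 ± 0.39 (-1.15 to 0.58; adjusted p = 1). Lcn2 had the narrowest interval here too, from -0.71 to 0.30 around -0.20. The 4 PM-OVA libraries were closer together than the 5 Sham-OVA libraries for calprotectin, with an SD of 0.15 against 1.15 for S100a8 and of 0.20 against 1.12 for S100a9 on the log2 scale. That contrast was noticed in the data and not tested, and in Sham-OVA it rests on replicate 4, the highest, and replicate 3, the lowest and shallowest.

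The third question was whether maternal exposure altered the response to OVA, as the difference between the 2 OVA effects in a fit of all 23 libraries. Here too 0 of 8 members and 0% of all genes were called (limma), and 0 members and 854 genes (5.08%) had an unadjusted p under 0.05. DESeq2 called 2 genes and edgeR 0, none of them a member. The count over all genes depended on the processing. Array weights, or leaving out the shallow libraries, called many genes, as given in the last section, but again no member. The OVA effect in PM offspring minus that in Sham offspring was between -0.85 for Retnlg (SE 0.76; 95% confidence interval -2.41 to 0.72; adjusted p = 1.00, limma) and 0.12 for Ngp (SE 0.67; -1.27 to 1.503). For Lcn2 it was -0.44 (SE 0.40; -1.27 to 0.39), for Cxcr2 -0.51 (SE 0.79; -2.15 to 1.13) and for Csf3r -0.14 (SE 0.61; -1.40 to 1.13). No interval excluded 0. For Cxcr2, Retnlg and S100a9 (-2.08 to 1.22) the intervals include differences of more than 4-fold. The size of the response in the 2 kinds of offspring was therefore not shown to be equal either.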

How the data were processed

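RNA-Seq of lung from 23 offspring (7 Sham, 7 PM, 5 Sham-OVA, 4 PM-OVA) was analysed, grouped by the treatment in the labels. The study's methods name Trimmomatic for trimming, Bowtie2 for alignment to GRCm38, SeqMonk for quantification and DESeq2 for the authors' own calls. The counting of strand and of reads with several matches is not given in the sources used here. The values deposited by the authors are RPM, although the table's name mentions RPKM: whatever the gene's length, nearly all equalled a whole number of reads (tolerance 0.01 reads), and these reads were recovered.

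The scale was log2(RPM + 0.5). A gene was tested if 4 or more libraries reached 0.5 RPM, which left 16795 genes. The test was limma 3.58.1 (R 4.3.3) with variance trend, between the 2 groups compared, or over all 23 libraries for the interaction, and p-values were adjusted by Benjamini-Hochberg over those genes. Ratios were tested with two-sided exact permutation tests (14 tests). DESeq2 1.42.0 and edgeR 4.0.16 on recovered reads, other scalings, filters and pseudocounts, and fits without each library were alternatives. Scripts were tested on simulated data. Exon lengths and coordinates came from the GENCODE annotation of GRCm38.

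Members and 16 lists of other genes were chosen with earlier results of these data known. Genes named from a list are the 2 with the smallest p in Sham-OVA against Sham, and any called in opposite directions in the 2 OVA comparisons (none was). No label says how the libraries of a group relate, so p-values measure the spread between these libraries.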

Additional observations from a re-analysis of the deposited data

Results flagged for a closer look

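Among 32 combinations of a member and a group, tested on the log2(RPM + 0.5) scale for a highest or lowest library far from the rest, 2 stood out, where chance alone flags about 1 in 20 groups. Il1r2 was at 6.29 RPM in Sham replicate 1, the library whose Xist level goes against its label, and at 1.05 to 2.16 RPM in the other Sham libraries. The gap to the next library was 0.634 of the whole range, above the critical value of 0.568 for 7 libraries. Without that library the OVA effect on Il1r2 in Sham offspring was 1.68 on the log2 scale in place of 1.43. Lcn2 was at 199 RPM in PM replicate 5 and at 45.0 to 61.6 RPM in the other PM libraries, with a gap of 0.790 of the range against the same critical value. The same library had the lowest S100a9 of its group, 35.1 RPM. Without it the OVA effect on Lcn2 in PM offspring was 2.84 in place of 2.57.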

How the results depend on the processing

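Of 1147 recomputed values over 43 results, 1086 were classed as the same. For a fold change or a ratio this meant the same direction and the same side of the threshold. A count of members or ratios called was classed as the same when it stayed close to its main value, so a move from 6 to 5 was included. The count of 6 members called with OVA was between 5 and 6 in PM offspring and 6 in Sham offspring over the fits without 1 library each. At the study's threshold, applied to limma, it was 1 in Sham and 0 in PM offspring. In those fits 11 to 13 of the 14 ratios passed, against 12. The sign of uncalled members turned in several fits, whose cause was not tested. For S100a8 in Sham offspring the values were 0.026 with median-of-ratios scaling, 0.065 with quantile normalisation, 0.30 with array weights, 0.066 with edgeR and 0.040 without the 3 shallow libraries, and -0.72 to 0.040 without 1 library each. S100a9 was at -0.23 to 0.54 in Sham offspring without 1 library each, and in PM offspring at 0.13 with median-of-ratios scaling and 0.080 with quantile normalisation. Il1r2 in PM against Sham was 0.050 with array weights and -0.33 to 0.15 without 1 library each. Ngp in PM-OVA against Sham-OVA was -0.019 with array weights, and its interaction was -0.17 with array weights, -0.41 without the shallow libraries and -0.20 to 0.47 without 1 library each. Array weights called 4616 genes in the interaction and leaving out the shallow libraries 721, none of them a member. Whether replicate numbers pair the libraries cannot be settled from expression. The correlation of same-numbered deviations was near 0 or of mixed sign. In PM-OVA against Sham-OVA it ran from -0.31 to 0.62 by replicate number. With the replicate number as a block, 6 members were called in Sham and 6 in PM offspring and S100a9 in Sham offspring was -0.018. With the number in the library names as a block, 6 and 5 were called, Il1r2 in PM offspring had an adjusted p of 0.0854, Cxcr2 there was -1.85, and S100a8 and S100a9 there were 0.45 and 0.51. Depth limits Csf3r most, with under 10 reads in 7 of 9 OVA libraries, and then Cxcr2, with under 10 in 2 of 9.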
